A study of Homo sapiens with 8 samples.

Results

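The 10 genes described here encode some of the enzymes that clear superoxide and peroxides in human cells, and the thioredoxins that serve them. They are the superoxide dismutase SOD2, catalase (CAT), the glutathione peroxidases GPX1 and GPX4, the peroxiredoxins PRDX1, PRDX2, PRDX3 and PRDX5, and the thioredoxins TXN and TXN2. They were taken by gene symbol from the 60592 gene rows of each library, and each symbol matched 1 row. All 10 passed the filter on low values and were among the 12063 genes tested. RNA came from the cell line WSU-DLCL2, which was derived from a diffuse large B-cell lymphoma. Control cells, labelled wild type, and cells overexpressing ferredoxin 1 (FDX1-OE) were each given the solvent DMSO or 15 nM of the copper ionophore elesclomol (ES) for 48 h. This gave 4 groups of 2 libraries, 8 in all: control DMSO, control ES, FDX1-OE DMSO and FDX1-OE ES. How FDX1 was overexpressed, whether the FDX1-OE cells are 1 clone, and whether the control cells carry an empty vector are not given in the sources used here. The labels do not say whether replicate libraries are separate cultures, and the p-values below therefore reflect the spread between libraries, which may be technical only.

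Superoxide leaks from the mitochondrial respiratory chain and is turned into hydrogen peroxide by superoxide dismutases, of which SOD2 is the manganese enzyme of the mitochondrial matrix. Hydrogen peroxide is then split by catalase, a haem enzyme of peroxisomes, or reduced by peroxidases. Glutathione peroxidases draw their electrons from glutathione. GPX1 acts on soluble peroxides, and GPX4 reduces lipid peroxides within membranes and is known for holding back ferroptosis. Peroxiredoxins react through a cysteine and, in most cases, are reset by thioredoxin, which is itself reset by thioredoxin reductase with NADPH. PRDX1, PRDX2 and TXN work mainly in the cytosol, PRDX3 and TXN2 in mitochondria, and PRDX5 in several compartments including mitochondria.

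The coding sequence around the reactive residue shows how these families differ, and it is shown for this reason for 7 of the genes. Each window holds 30 bases, 5′ to 3′, from GENCODE release 29 transcripts. Capitals mark the codon of the reactive residue, which is codon 49 of GPX1, 73 of GPX4, 52 of PRDX1, 51 of PRDX2 and 108 of PRDX3, counted from the start codon, and the run of codons 32 to 35 in TXN and 90 to 93 in TXN2. In GPX1 and GPX4 the codon is TGA, read there as selenocysteine.
GPX1: gtggcgtccctcTGAggcaccacggtccgg
GPX4: gtggcctcccagTGAggcaagaccgaagta
In the peroxiredoxins it is the codon of the cysteine that meets the peroxide.
PRDX1: ttcacctttgtgTGCcccacggagatcatt
PRDX2: ttcacttttgtgTGCcccaccgagatcatc
PRDX3: ttcacctttgtgTGTcctacagaaattgtt
In the thioredoxins the capitals spell the cysteine, glycine, proline and cysteine of the active site.
TXN: gccacgtggTGTGGGCCTTGCaaaatgatc
TXN2: gcacagtggTGTGGACCCTGCaagatcctg
The windows of PRDX1 and PRDX2 shared 27 of 30 bases, those of PRDX1 and PRDX3 24, those of TXN and TXN2 21, and those of GPX1 and GPX4 19.

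In the libraries, the overexpressed gene matched the labels. FDX1 was at 10.8 and 10.4 FPKM in control DMSO, 9.88 and 10.0 in control ES, 59.8 and 56.0 in FDX1-OE DMSO, and 60.7 and 59.4 in FDX1-OE ES. All 6 B cell markers checked were present, with summed levels of 1355 to 1498 FPKM per library. With ES in FDX1-OE cells 2 of the 6 were called lower, CD22 (-0.53) and CD79B (-0.34). Another 2 were called higher, CD79A (0.22) and PAX5 (0.28). Over all genes tested 13.7% were called lower and 47.1% higher in this comparison. Sums over the 8 T and NK cell, 6 myeloid and 5 erythroid markers reached at most 0.707, 0.638 and 0.310 FPKM, and CD3D, CD3G, CD2, FCGR3A and HBB were at 0 in all 8 libraries. The 5 epithelial and fibroblast markers summed to 0.851 to 1.46 FPKM. DCN, the 1 of them that passed the filter, was called lower with ES in FDX1-OE cells (-0.67, adjusted p = 0.0027). Its part in the results was not tested. The FDX1-OE ES libraries stood apart. Their FPKM sums were 408018 and 403024, against 445716 to 451027 in the other 6. Mitochondrially encoded mRNAs made up 14.7% and 11.9% of their sums, against 16.9% to 17.6% elsewhere, and they held 11868 and 12047 genes at 1 FPKM or more, against 10815 to 11320. The part of these library-wide differences in the results below was not tested. The absolute depth is unknown. Relative depths read from the commonest low value lay within 1.18 of each other.

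The 10 enzymes were abundant. FPKM is scaled to gene length, so levels can be set side by side between genes. In control DMSO the order of mean levels was PRDX1 at 556 FPKM, PRDX2 at 296.5, PRDX3 at 158, GPX1 at 128.6, GPX4 at 120.0, PRDX5 at 105, TXN at 101.6, TXN2 at 76.1, SOD2 at 31.0 and CAT at 20.7, and no neighbours in this order overlapped. PRDX1 lay above 99.2% of the genes tested by its mean log2 level over the 8 libraries, TXN2 above 93.5%, SOD2 above 80.9% and CAT above 73.7%. In FDX1-OE ES the order held except that GPX1 passed PRDX3 and TXN2 passed TXN. GPX1 passed PRDX3 in control ES as well, at 167.3 against 161.8 FPKM, with overlapping libraries. In FDX1-OE ES the libraries of GPX1 and PRDX3, of PRDX3 and GPX4, of PRDX5 and TXN2, and of SOD2 and CAT overlapped. Summed over the 10 genes, the libraries held 1601 and 1586 FPKM in control DMSO, 1608 and 1622 in FDX1-OE DMSO, 1608 and 1675 in control ES, and 1362 and 1483 in FDX1-OE ES. Both FDX1-OE ES sums were below the other 6, though as a share of all FPKM they were 0.334% and 0.368%, against 0.355% to 0.374% elsewhere. In bulk RNA of a cell line, a lower level in every cell and a lower level in only part of the cells cannot be told apart.

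**Figure D1:**
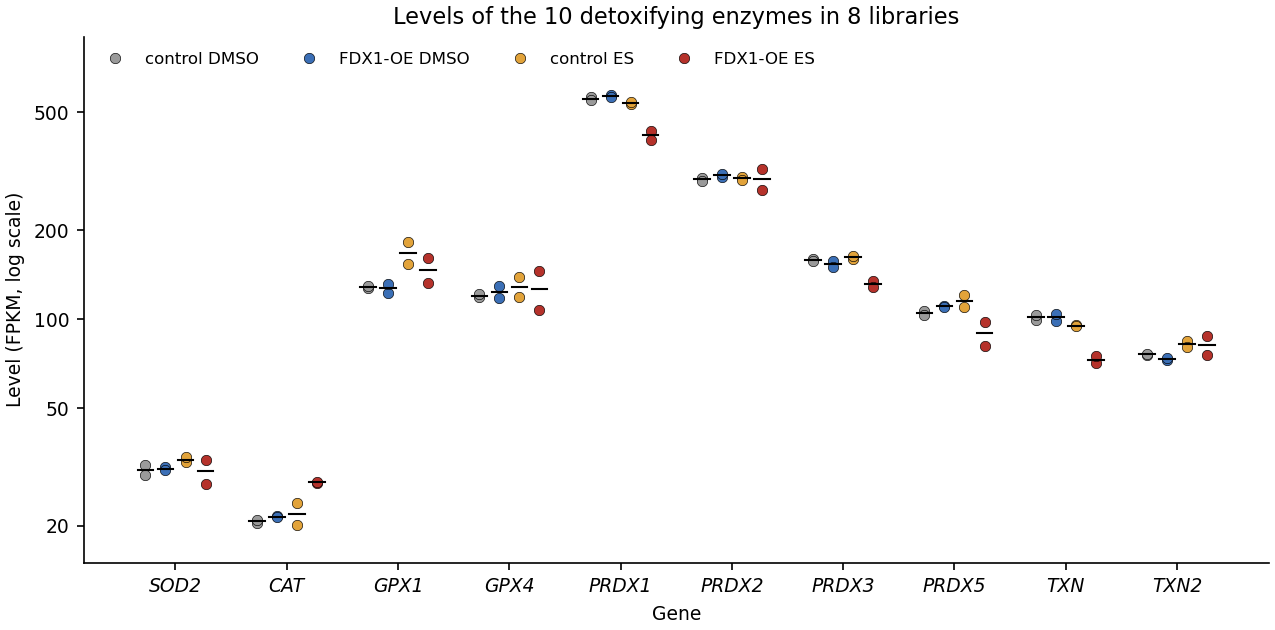
Level of each of the 10 enzymes (vertical axis, FPKM on a log scale) in the 8 libraries, by gene and group, with 1 point for each library and a line at each group mean of 2 libraries. PRDX1, PRDX3, PRDX5 and TXN lie lowest in FDX1-OE ES and CAT lies highest there, while the FDX1-OE ES points of PRDX2 and of GPX4 span the other groups.

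Without elesclomol, FDX1 overexpression left these enzymes close to their control levels. Of the 10 genes, 0 were called higher and 0 lower by limma at a Benjamini-Hochberg adjusted p below 0.05, and 0 had an unadjusted p below 0.05. Over all genes 0.00829% were called, which is FDX1 alone, and 420 genes had an unadjusted p below 0.05. The differences, FDX1-OE minus control on the log2(FPKM + 1) scale used for every fold change here, ran from -0.06 for TXN2 to 0.07 for PRDX5. TXN2 was at 75.8 and 76.5 FPKM in control and at 72.4 and 73.9 in FDX1-OE cells, and PRDX5 at 106.4 and 103.6 against 110.9 and 110.0. The libraries of 5 of the 10 genes did not overlap between these groups, beside 39.0% of all genes tested.

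In control cells GPX1 showed the largest elesclomol difference of the 10 genes. It was at 127.7 and 129.4 FPKM with DMSO and at 153 and 182 FPKM with ES, a ratio of means of 1.3. Both ES libraries were above both DMSO libraries. The difference was 0.37 (SE 0.105), with an unadjusted p of 0.00725 that did not pass adjustment over all genes (limma, adjusted p = 0.0686). Thus 0 of 10 genes were called in either direction, beside 7.74% of all genes tested (6.74% higher, 1% lower), and GPX1 was the 1 member with an unadjusted p below 0.05, as were 3305 genes in all. GPX1 was called under 5 of 18 alternative settings, among them with either FDX1-OE ES library left out. The difference then stayed at 0.37, and the shared estimate of spread, the filter and the adjustment over all genes changed. The other glutathione peroxidase, GPX4, was at 118.4 and 121.7 FPKM with DMSO and 118.4 and 138.5 with ES, so its groups touched.

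The rest of the enzymes differed by -0.09 to 0.13 in control cells. TXN was at 99.6 and 103.6 FPKM with DMSO and 95.1 and 95.0 with ES (-0.09, adjusted p = 0.334). TXN2, its mitochondrial counterpart, was at 75.8 and 76.5 with DMSO and 84.0 and 80.7 with ES (0.11). These libraries did not overlap in either gene, which held for 7 of the 10 enzymes and for 65.3% of all genes tested. The median over the 10 genes was 0.085, and over all genes tested 0.094.

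In FDX1-OE cells, on the deposited scale, PRDX1, PRDX3, PRDX5 and TXN were lower with elesclomol and CAT was higher. These were the 5 of 10 genes called by limma, 4 lower and 1 higher, beside 60.8% of all genes tested, 13.7% called lower and 47.1% called higher. The median difference over all genes was 0.248, so a gene that held its FPKM lay below most others. The median over the 10 enzymes was -0.041. The libraries of 7 of the 10 did not overlap between the groups, beside 79.1% of all genes tested.

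Of the enzymes that act first, SOD2 was at 31.5 and 30.9 FPKM with DMSO and at 27.7 and 33.5 FPKM with ES, and its groups overlapped (-0.03, SE 0.092, adjusted p = 0.759). CAT was at 21.6 and 21.4 FPKM with DMSO and 28.0 and 28.1 FPKM with ES, a ratio of 1.31. Both ES libraries of CAT were above all 6 other libraries of the series, whose highest was 23.9 in control ES. The difference was 0.37 (SE 0.0847, adjusted p = 0.0058), which is 0.122 above the median of all genes. It stayed positive under every alternative run, but fell to 0.09 with median-ratio scaling (adjusted p = 0.355) and to 0.22 with quantile normalisation (adjusted p = 0.0555).

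The glutathione peroxidases differed in FDX1-OE cells by amounts that did not pass the test. GPX1 was at 122.8 and 131.2 FPKM with DMSO and at 132.6 and 160.3 FPKM with ES, a difference of 0.20 (adjusted p = 0.133). GPX4 was at 117.8 and 129.5 with DMSO and at 107.7 and 145.9 with ES. The second FDX1-OE ES library was the highest of all 8 for GPX4 and the first was the lowest, so the replicates of this group spanned every other library. The difference of GPX4 was 0.02 with a 95% interval from -0.289 to 0.331, which leaves changes of either sign within the spread of these libraries.

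Among peroxiredoxins, PRDX1 was at 572 and 562 FPKM with DMSO and 431 and 404 FPKM with ES. Its ES libraries were below all 6 others, and its difference in FPKM was the largest of the 10 genes. The difference was -0.44 (SE 0.0553, adjusted p = 0.000314), with a ratio of means of 0.737. PRDX2, which shares most of the printed window with PRDX1, was at 302.5 and 309.5 FPKM with DMSO and at 272.6 and 321 with ES. Its groups overlapped, and the difference was -0.05 (SE 0.0771, adjusted p = 0.605).

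The mitochondrial PRDX3 was at 157.6 and 149.6 FPKM with DMSO and 134.8 and 128.7 FPKM with ES. The groups did not overlap, and the difference was -0.22 (SE 0.0563, adjusted p = 0.00984). PRDX5 was at 110.9 and 110.0 with DMSO and 81.0 and 98.1 with ES, a difference of -0.31 (SE 0.0902, adjusted p = 0.0181). Both ES libraries of PRDX5 were lower, but they differed from each other by a ratio of 1.21. The call of PRDX3 was lost without the first FDX1-OE DMSO library (-0.18, adjusted p = 0.086), and that of PRDX5 without the first (-0.30, adjusted p = 0.078) or the second (-0.31, adjusted p = 0.0701).

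Of the thioredoxins, TXN was at 98.5 and 104.2 FPKM with DMSO and 71.1 and 74.8 FPKM with ES, below all 6 other libraries, the lowest of which was at 95.0. The difference was -0.47 (SE 0.0591, adjusted p = 0.000322), a ratio of 0.72 and the largest fall of the 10 genes on the log2 scale. TXN2 did not pass the test, at 72.4 and 73.9 FPKM with DMSO and 75.4 and 87.6 with ES (0.15, adjusted p = 0.117). Against the median of all genes, TXN lay at -0.716, PRDX1 at -0.688, PRDX5 at -0.555, PRDX3 at -0.468 and TXN2 at -0.098.

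**Figure D2:**
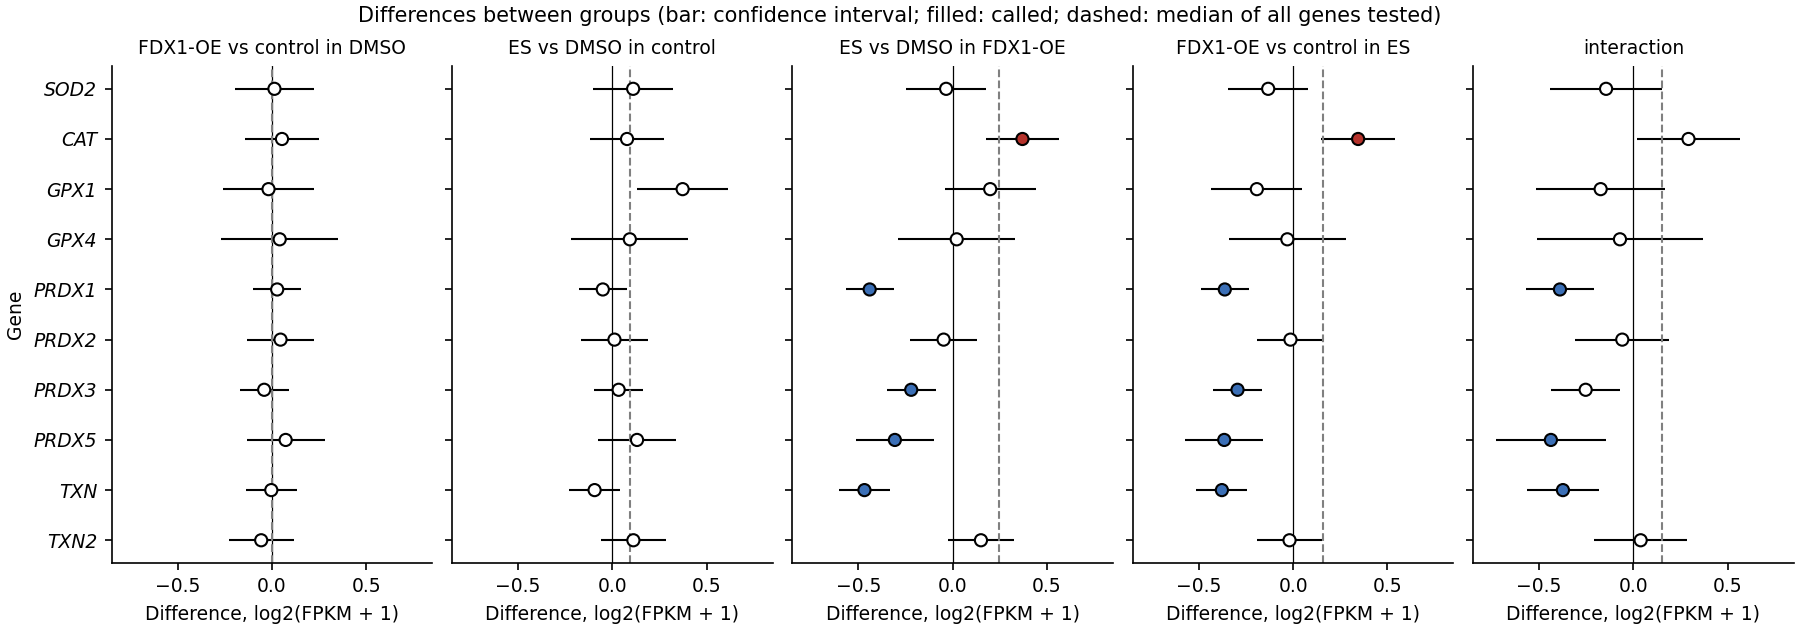
Difference between groups for each enzyme on the log2(FPKM + 1) scale in the 5 comparisons, with the estimate as a point, its 95% interval as a bar, called genes filled (red higher, blue lower) and the median of all genes tested dashed. The interaction is the ES effect in FDX1-OE cells minus that in control cells. Calls appear in the comparisons that contain the FDX1-OE ES libraries, where PRDX1, PRDX5 and TXN lie left of 0 and, outside the interaction, PRDX3 lies left and CAT right.

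With elesclomol in both, FDX1-OE and control cells differed in these same 5 genes on the deposited scale. This comparison uses the same FDX1-OE ES libraries as the one above, so its values are given beside it and are not a second observation. Between FDX1-OE and control cells in ES, 5 of 10 genes were called, 4 lower and 1 higher, beside 41.5% of all genes tested (10.4% lower, 31.1% higher). TXN was at 95.1 and 95.0 FPKM in control and 71.1 and 74.8 in FDX1-OE cells (-0.38, adjusted p = 0.00234), and PRDX1 at 532 and 542 against 431 and 404 (-0.36, adjusted p = 0.00217). The differences were -0.37 for PRDX5 (adjusted p = 0.014), -0.29 for PRDX3 (adjusted p = 0.00504) and 0.34 for CAT (adjusted p = 0.0137). All 5 kept their sign under 18 alternatives, though that of PRDX1 ran from -0.54 to -0.06.

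The FPKM of these pairs of groups did not overlap in any of the 5 called genes, and overlapped in the other 5, beside 69.1% of all genes tested without overlap. CAT was at 20.1 and 23.9 FPKM in control ES and its call was lost without the first of these libraries (0.22, adjusted p = 0.0912). The call of PRDX5 was lost without the second control ES library (-0.30, adjusted p = 0.0864). GPX1 was at 153 and 182 FPKM in control ES and 132.6 and 160.3 in FDX1-OE ES (-0.19, adjusted p = 0.173). Without the second FDX1-OE ES library, GPX1 (-0.33, adjusted p = 0.0317), SOD2 (-0.27, adjusted p = 0.0178) and PRDX2 (-0.13, adjusted p = 0.0397) were called lower as well.

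Whether the elesclomol effect itself differed between the cells was tested as an interaction. It was called lower in FDX1-OE cells for 3 of 10 genes and higher for 0, beside 19% of all genes tested, 5.06% called lower. These were PRDX5 (-0.44, SE 0.128, adjusted p = 0.047), PRDX1 (-0.39, SE 0.0782, adjusted p = 0.0154) and TXN (-0.37, SE 0.0836, adjusted p = 0.0212). The interaction of PRDX3 was -0.25 (adjusted p = 0.0585) and that of CAT 0.29 (adjusted p = 0.119), so for these genes a difference between the effects was not shown. For GPX4, PRDX2 and TXN2 it was -0.07, -0.06 and 0.04. Over all 17 alternatives the interaction ran from -0.61 to -0.3 for PRDX5, from -0.56 to -0.06 for PRDX1 and from -0.55 to -0.23 for TXN. All 3 calls were lost when any 1 of the 6 libraries other than the FDX1-OE ES libraries was left out, with adjusted p from 0.0573 to 0.136, while the estimates stayed between -0.50 and -0.33.

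The genes that fell were among the most abundant in these cells, and among abundant genes more were called lower than higher in FDX1-OE ES. Of 992 genes with a mean log2 level of at least 6, a limit chosen after the values were seen, 47.8% were called lower with ES in FDX1-OE cells and 18% higher, with a median of -0.175. The shares lower and higher were 73.5% and 7.16% under median-ratio scaling, 33% and 23.3% under quantile normalisation, and 34.3% and 28.2% under equal totals. The 10 enzymes have 8 members in this class, all but SOD2 and CAT, and 4 of the 8 were called lower. That share is near the share of the class. In control cells 5.04% of the class were called lower and 5.04% higher with ES, and the median was -0.021.

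The scaling of the libraries set the size of each difference. Median-ratio scaling brings the median of all genes to 0.002 in the ES effect of FDX1-OE cells, quantile normalisation to -0.008, and equal FPKM totals raise it to 0.375. TXN was called lower under all 3, at -0.75, -0.45 and -0.32. PRDX1 was at -0.73, -0.11 (adjusted p = 0.151, not called) and -0.29. PRDX5 was at -0.59, -0.26 and -0.16 (adjusted p = 0.16, not called), and PRDX3 at -0.51, -0.08 and -0.07, with the latter pair not called. These 4 genes kept a negative sign throughout. PRDX2 did not, being called lower with median-ratio scaling (-0.34, adjusted p = 0.00795) and above 0 with quantile normalisation (0.12) and equal totals (0.10). GPX1 was called higher with quantile normalisation (0.34, adjusted p = 0.0265) and equal totals (0.35, adjusted p = 0.0202) and lay at -0.09 with median-ratio scaling.

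**Figure D3:**
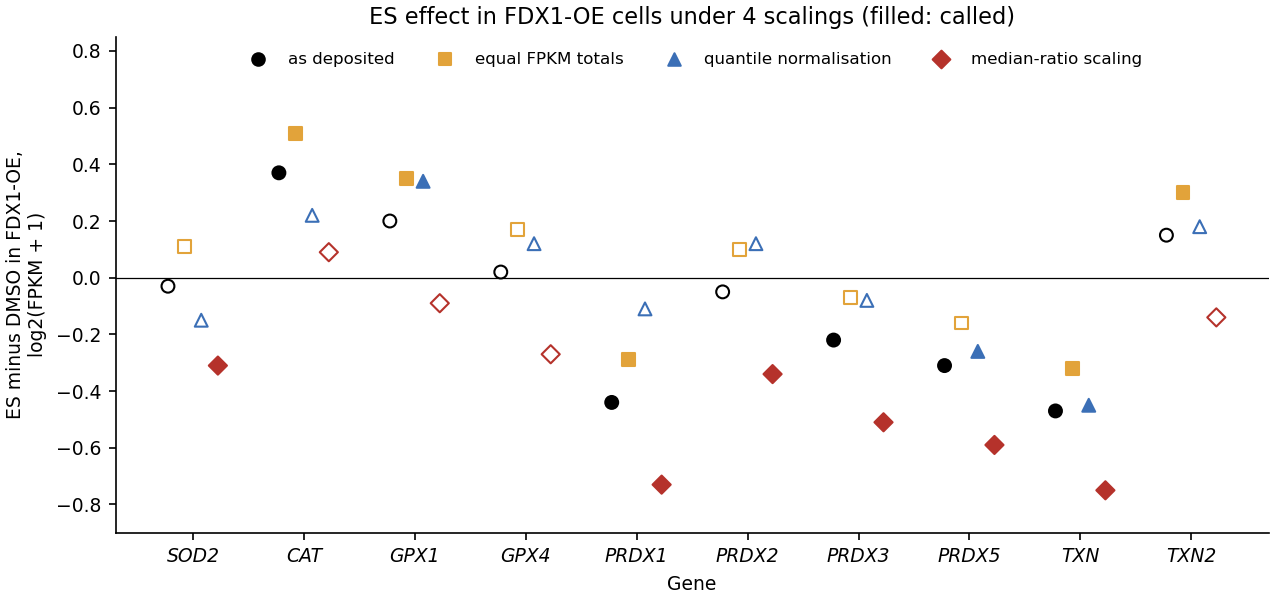
ES effect in FDX1-OE cells for each enzyme, in log2(FPKM + 1) units, with the values as deposited and under 3 other scalings, filled where called. TXN lies below 0 and is filled under all 4, PRDX1, PRDX3 and PRDX5 lie below 0 under all 4 but are not always filled, CAT lies above 0 under all 4, and SOD2, GPX1, GPX4, PRDX2 and TXN2 change sign.

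Ratios of 1 gene to another within a library do not change when that library is scaled by 1 factor, as in median-ratio scaling or equal totals. Quantile normalisation is not such a factor and can change them, so the ratios below hold for the deposited values. The pairs were chosen after the values were seen, and with 2 libraries against 2 the smallest exact permutation p is 0.333, so they are given as values. The ratio of TXN to TXN2 was 1.31 and 1.35 in control DMSO, 1.36 and 1.41 in FDX1-OE DMSO, 1.13 and 1.18 in control ES, and 0.944 and 0.854 in FDX1-OE ES. The cytosolic thioredoxin mRNA thus went from above the mitochondrial one to below it, with control ES in between and no overlap between the DMSO and ES groups. The ratio of CAT to PRDX1 was 0.0363 to 0.0441 in the 6 other libraries and 0.0649 and 0.0696 in FDX1-OE ES. PRDX1 to PRDX2 was 1.76 to 1.89 in the other 6 and 1.58 and 1.26 in FDX1-OE ES. PRDX5 to TXN2 was 1.31 to 1.53 in the other 6 and 1.07 and 1.12 in FDX1-OE ES. GPX1 to GPX4 followed the treatment, at 1.01 to 1.08 in the 4 DMSO libraries and 1.10 to 1.31 in the 4 ES libraries. These ratios show unequal change within a pair, not which gene of the pair changed.

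**Figure D4:**
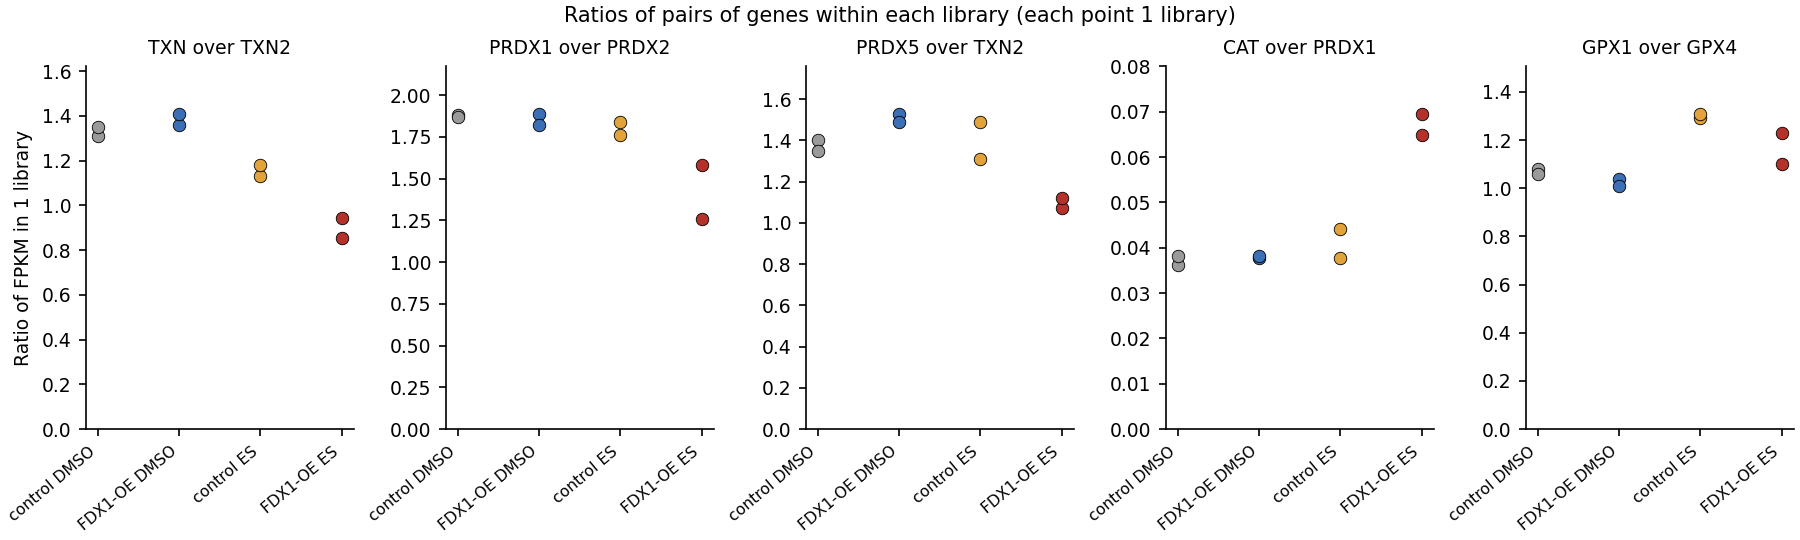
Ratio of the FPKM of 1 enzyme to another within each library, with 1 point for each library, 2 in each of the 4 groups, and axes from 0. TXN over TXN2, PRDX1 over PRDX2 and PRDX5 over TXN2 are lowest in FDX1-OE ES, CAT over PRDX1 is highest there, and GPX1 over GPX4 is above all DMSO libraries in all ES libraries.

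Of 5 close relatives or partners of the 10 enzymes tested, PRDX4, PRDX6 and SOD1 fell as well in FDX1-OE cells with elesclomol, and GPX7 and CCS did not pass the test. PRDX6, the cytosolic peroxiredoxin that uses glutathione, was at 99.8 ± 0.282 FPKM with DMSO and 79.5 ± 3.69 with ES (SD, n = 2, log2 -0.33, limma adjusted p = 0.00166). PRDX4, which acts in the endoplasmic reticulum, stood at 31.1 ± 0.318 and 23.7 ± 1.98 FPKM (-0.38, adjusted p = 0.00295). With the 3 peroxiredoxins called above, 5 of the 6 human peroxiredoxin genes were called lower on the deposited scale. This stands beside 13.7% of all genes tested and 47.8% of the 992 abundant genes. PRDX2 was the exception there, but was called lower with median-ratio scaling (-0.34). PRDX1 and PRDX3 were not called with quantile normalisation, nor PRDX3 and PRDX5 with equal totals. GPX7 was at 22.8 ± 0.582 and 19.7 ± 2.32 FPKM (-0.21, adjusted p = 0.0799) and completes the 3 other peroxidases tested, 2 of which were called lower. SOD1, the copper-zinc dismutase of the cytosol, was at 243 ± 5.26 and 170.3 ± 17.4 FPKM (-0.51, adjusted p = 0.000593), and its effect differed from that in control cells (interaction -0.48, adjusted p = 0.0195). CCS, which loads copper into SOD1, was at 9.77 ± 1.36 and 11.3 ± 4.35 FPKM (0.15, adjusted p = 0.549), but it lay below 0 under median-ratio scaling (-0.11) and quantile normalisation (-0.14). SOD1, PRDX4 and PRDX6 were called lower under all 3 other scalings. Their values with median-ratio scaling, quantile normalisation and equal totals were -0.80, -0.26 and -0.37 for SOD1, -0.66, -0.53 and -0.24 for PRDX4, and -0.61, -0.30 and -0.18 for PRDX6.

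Genes listed for the recycling of thioredoxin and glutathione, or for making glutathione, were mostly called higher. The recycling list is broad and also holds the thioredoxin inhibitor TXNIP and the sestrins. Of its 14 genes tested, 10 were called higher and 1 lower in FDX1-OE cells with ES, with a median of 0.638. Over all genes tested 47.1% were called higher and 13.7% lower, with a median of 0.248. The counts of the recycling list were 8 and 3 under either median-ratio scaling or quantile normalisation, and 11 and 0 under equal totals. The 1 called lower, named after its values were seen, was the mitochondrial glutaredoxin GLRX2 (-0.80, adjusted p = 0.0417). TXNIP, which binds and inhibits thioredoxin, was at 5.88 ± 0.279 FPKM with DMSO and 26.1 ± 1.24 with ES (1.98, adjusted p = 4.59e-06). SESN2, a sestrin, was at 9.06 ± 0.696 and 28.3 ± 3.78 FPKM (1.54, adjusted p = 2.41e-05). SESN3 (1.03) and NNT, the mitochondrial transhydrogenase that makes NADPH (0.56), were called higher as well. TXNIP, SESN2, SESN3 and NNT were also called higher in control cells, where 5 of 14 were, with 0 lower, beside 6.74% higher and 1% lower over all genes tested. The interaction was called for TXNIP at 1.46 (adjusted p = 0.00106) and for SESN2 at 0.99 (adjusted p = 0.00675).

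All 5 glutathione synthesis genes tested were called higher in FDX1-OE cells with ES, beside 47.1% of all genes tested. In control cells 2 of 5 were, beside 6.74%. In FDX1-OE cells 2 were called with median-ratio scaling, 3 with quantile normalisation and 5 with equal totals, and 0 were lower under any of them. SLC7A11, the cystine carrier of the glutamate exchanger, was at 1.25 ± 0.209 FPKM with DMSO and 5.55 ± 0.594 with ES (1.54, adjusted p = 3.84e-05). GSS, glutathione synthetase, was at 19.2 ± 0.742 and 35.1 ± 5.19 FPKM (0.83, adjusted p = 0.000311). SLC3A2 (0.43) and GCLM (0.46) were also called. The genes of other supporting steps were split. NADPH supply had 1 of 7 higher, IDH2 at 0.66, and 1 lower, TKT at -0.42. Selenoprotein synthesis, on which the TGA codons of GPX1 and GPX4 depend, had 4 of 6 higher and 1 lower, SEPHS2 at -0.17, with PSTK at 0.72. With median-ratio scaling NADPH supply had 1 higher and 5 lower, while with equal totals it had 4 and 1. Selenoprotein synthesis had 1 higher and 1 lower under median-ratio scaling, and 0 of either under quantile normalisation, so the directions of both lists depended on the scaling.

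Regulators of antioxidant genes had 3 of 8 higher and 1 lower in FDX1-OE cells with ES. These counts were 1 and 1 under median-ratio scaling, 0 and 1 under quantile normalisation, and 6 and 1 under equal totals. NFE2L2, the NRF2 factor, was at 17.4 ± 0.791 and 21.0 ± 0.958 FPKM (0.26, adjusted p = 0.0206), close to the median of all genes, and lay at -0.02 with median-ratio scaling. FOXO3 was at 1.45 ± 0.0957 and 2.67 ± 0.143 FPKM (0.58, adjusted p = 0.00167), and was not called under quantile normalisation (0.13, adjusted p = 0.337). MAFK, a small partner of NRF2, was at 17.1 ± 0.622 and 7.32 ± 0.00125 FPKM (-1.12, adjusted p = 1.73e-05), and was called lower in control cells too (-0.36, adjusted p = 0.0258). In FDX1-OE cells MAFK was called lower under all 3 other scalings, at -1.43 to -0.99. These lists are described by their counts, beside the 47.1% higher and 13.7% lower over all genes tested in this comparison.

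**Figure D5:**
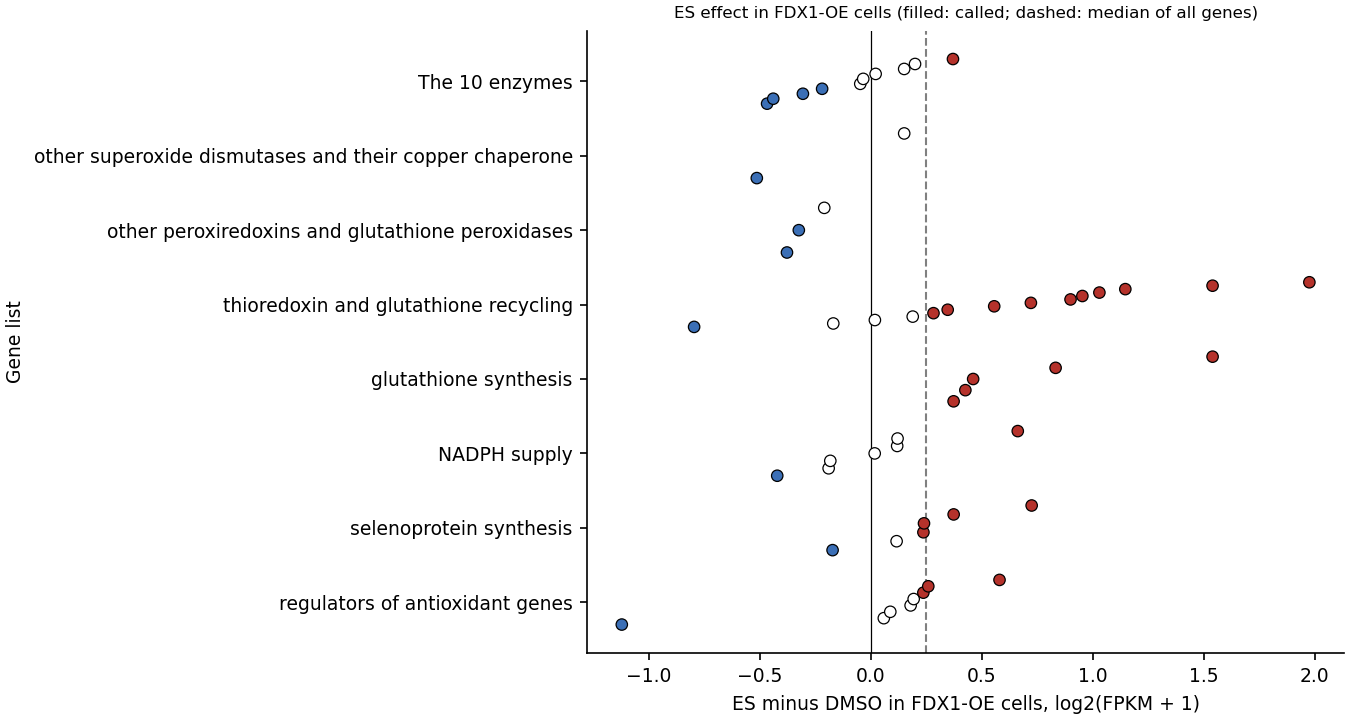
ES effect in FDX1-OE cells, in log2(FPKM + 1) units, for the 10 enzymes and for 7 lists of related genes, with 1 point for each gene tested, called genes filled (red higher, blue lower) and the median of all genes dashed. The glutathione synthesis genes lie above 0.3 and are filled, 10 of 14 genes of the recycling list are filled to the right, and the other peroxiredoxins and peroxidases lie left of 0.

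The genes whose log2 levels followed those of the enzymes with the largest fall and rise with ES in FDX1-OE cells most closely over the 8 libraries were found among genes with a mean log2 level of at least 3. For TXN they were BAG1 (Pearson r = 0.998), CHCHD10 (0.996) and PFKP (0.995), and for CAT they were BECN1 (0.981), TSTD2 (0.977) and SMAP1 (0.977). The 8 points are 4 groups of 2 libraries, and the FDX1-OE ES libraries set the range for both genes, so these values describe this series only.

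The promoters of TXN and CAT are printed because these genes had the largest fall and the largest rise of the 10 with ES in FDX1-OE cells, on the deposited scale. Each run holds the 250 bases before the RefSeq transcription start (GRCh38.p14), with CCAAT on either strand in capitals.
CAT, chr11:34438684-34438933, plus strand: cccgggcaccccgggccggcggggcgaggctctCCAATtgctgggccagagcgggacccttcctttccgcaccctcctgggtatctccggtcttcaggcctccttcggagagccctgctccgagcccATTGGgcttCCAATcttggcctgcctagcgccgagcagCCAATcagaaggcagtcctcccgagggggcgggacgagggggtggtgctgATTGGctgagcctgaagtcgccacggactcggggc
TXN, chr9:110256508-110256757, minus strand: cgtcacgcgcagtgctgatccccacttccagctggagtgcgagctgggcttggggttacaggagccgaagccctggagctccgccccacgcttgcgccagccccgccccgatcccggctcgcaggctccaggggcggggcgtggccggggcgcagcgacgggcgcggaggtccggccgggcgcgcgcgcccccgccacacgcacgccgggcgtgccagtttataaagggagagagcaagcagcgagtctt
The CAT run holds 5 CCAAT motifs, beginning 217, 123, 114, 85 and 35 bases before the start, and the TXN run holds 0. Promoter windows of 300 bases were found for 8 of the 10 genes, 14 windows in all, and none was found for PRDX1 and TXN2. CCAAT lay in 5 of the 14, those of CAT, GPX4 and SOD2, beside 34.6% of all 35116 windows. The core of the antioxidant response element, TGACNNNGC on either strand, lay in 0 of the 14, beside 13.3% of all windows. The E-box CACGTG, which is its own reverse complement, lay in 2 of the 14, those of GPX1 and PRDX3, beside 7.26%. No window held more than 1 of the 3 motifs, so no matches overlapped. A match describes the letters of a window, not the binding of a factor.

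Processed copies of the mRNAs could share reads with the genes themselves. The files hold 21 rows named as copies, or as overlapping transcripts, of 7 of the 10 genes. Of these, 14 were at 0 in all libraries, and the highest value was 0.865 FPKM, for GPX1P1. In GENCODE release 29 (GRCh38, whereas the submitters' notes name hg19) TXN lies at chr9:110243811-110256640, PRDX3 at chr10:119167703-119178833, PRDX5 at chr11:64318088-64321811 and CAT at chr11:34438925-34472062, and no other gene overlaps them. PRDX1, at chr1:45511036-45523047 on the minus strand, overlaps MMACHC on the plus strand, which was at 1.66 to 2.41 FPKM as group means. PRDX2 overlaps HOOK2 on its own strand, at 5.25 to 6.38 FPKM. SOD2 overlaps WTAP and ACAT2, on the other strand, at 41.4 to 45.4 FPKM, which is more than SOD2 itself. Whether the authors counted by strand is not given in the sources used here, so reads of SOD2 and of these genes may not be fully separated.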

How the data were processed

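Per the labels' protocols, RNA was isolated with TRIzol and sequenced from VAHTS Universal V6 libraries. The deposited values were taken as FPKM, read from the values themselves because no header names the unit. Tools listed in the submitters' processing notes are HTSeq, HISAT2 and R 3.2.0, with genome hg19 and no roles given. The sources used here give neither the tool behind the FPKM nor the depth or strand setting.

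Values were used as log2(FPKM + 1), which understates the change of low genes. The filter asked for 1 FPKM or more in 2 or more libraries and kept 12063 genes. With limma 3.58.1 (R 4.3.3), 4 group means and a mean-variance trend were fitted over the 8 libraries, leaving 4 residual and 4.25 prior degrees of freedom. Tests were two-sided. Called means an adjusted p (Benjamini-Hochberg, over the 12063 genes) below 0.05.

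The 10 members, the comparisons and the gene lists were chosen with earlier results of these data known. From each list up to 4 genes with the smallest p in the ES effect of FDX1-OE cells were named. Similar genes were ranked by Pearson correlation, passing over clone and accession names. Alternatives changed the pseudocount, filter, scaling, weights, samples fitted, replicate block or trend, or left out 1 library. Rows that share a symbol, 1059 in number, were kept apart. Of the lists, 1 is not reported here.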

Additional observations from a re-analysis of the deposited data

Results flagged for a closer look

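For 3 of the 10 enzymes the elesclomol effect in FDX1-OE cells differed from that in control cells by the limma interaction test: PRDX5 by -0.44, PRDX1 by -0.39 and TXN by -0.37 on the log2(FPKM + 1) scale. Over all genes tested 19% were called, 5.06% lower, and among the 992 genes with a mean log2 level of at least 6, which include these 3, 26.5% were called lower. All 3 calls were lost when any 1 of the 6 libraries other than the FDX1-OE ES libraries was left out. Over all 17 alternatives the interaction ran from -0.61 to -0.3 for PRDX5, from -0.56 to -0.06 for PRDX1 and from -0.55 to -0.23 for TXN. In FDX1-OE cells both ES libraries lay below both DMSO libraries for each of these genes. In control cells the ES effects were 0.13 for PRDX5, -0.05 for PRDX1 and -0.09 for TXN, none of them called. The 2 FDX1-OE ES libraries also had the lowest FPKM sums and the lowest shares of mitochondrially encoded mRNA of the series, and the part of this in the 3 differences was not tested.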

How the results depend on the processing

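Over the 10 enzymes and 5 comparisons, 890 values were recomputed under alternative settings: 42 turned sign, 47 lost a call, 24 gained one, and 777 kept their side of the threshold without turning sign. Signs were read at 2 decimals, where 0.00 has none, so TXN in DMSO, at 0.00, is counted among the 777 whatever its sign under an alternative. No value that turned sign belonged to a called difference. For ES in FDX1-OE cells TXN was called under 18 of 18 alternatives, PRDX1 under 17, CAT under 16, PRDX3 under 14 and PRDX5 under 13. Between cells in ES the numbers were 18 for TXN, 17 for PRDX1 and PRDX3, and 14 for CAT and PRDX5. In the interaction TXN and PRDX1 were called under 10 of 17 and PRDX5 under 6.

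Of the counts of called members, the 5 of the ES effect in FDX1-OE cells became 3 with quantile normalisation and with only the groups compared, and 3 to 7 with 1 library left out. The 5 between FDX1-OE and control cells in ES became 3 and 3 under the same settings and 4 to 8 with 1 library left out. The 0 of the ES effect in control cells became 1, GPX1, with array weights and with only the groups compared, and 0 to 1 with 1 library left out. The 3 of the interaction became 1 with quantile normalisation and 0 to 6 with 1 library left out. With quantile normalisation the 3 called for the ES effect in FDX1-OE cells were TXN, PRDX5 and GPX1, and GPX1 was not among the 5. The causes of these changes in count were not tested. Over all genes the number called ranged from 5538 to 8181 for the ES effect in FDX1-OE cells, 2511 to 6644 between cells in ES, 28 to 2523 for ES in control cells and 539 to 3924 for the interaction.

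No effect shared by replicate number was seen: the correlation of replicate differences between groups ran from -0.05 to 0.079. Whether libraries of the same number were prepared together is not given in the labels, and these correlations cannot settle it. With the replicate block the members called numbered 0 in DMSO, 5 between cells in ES, 1 for ES in control cells, 5 for ES in FDX1-OE cells and 3 for the interaction.

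Sign turned with equal FPKM totals for SOD2 (0.01), GPX4 (0.11), PRDX2 (0.13) and TXN2 (0.12) between cells in ES, SOD2 (0.11) and PRDX2 (0.10) for ES in FDX1-OE cells, and GPX4 (0.07) and PRDX2 (0.08) in the interaction. It turned with quantile normalisation for GPX4 (0.07), PRDX2 (0.14) and TXN2 (0.04) between cells in ES, PRDX2 for ES in control (-0.01) and FDX1-OE cells (0.12), and GPX4 (0.02) and PRDX2 (0.13) in the interaction. It turned with median-ratio scaling for CAT (-0.03), GPX4 (-0.02), PRDX2 (-0.10) and PRDX3 (-0.08) for ES in control cells, GPX1 (-0.09), GPX4 (-0.27) and TXN2 (-0.14) for ES in FDX1-OE cells, and TXN2 (-0.13) in the interaction.

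With 1 library left out, values that turned sign ranged as follows. In DMSO, TXN, at 0.00 with all libraries, ran from -0.04 to 0.04, SOD2 from -0.04 to 0.07, GPX1 from -0.07 to 0.03 and GPX4 from -0.03 to 0.11. Between cells in ES, GPX4 ran from -0.25 to 0.19, PRDX2 from -0.13 to 0.10 and TXN2 from -0.13 to 0.09. For ES in control cells, CAT ran from -0.04 to 0.20, GPX4 from -0.02 to 0.21 and PRDX2 from -0.01 to 0.03. For ES in FDX1-OE cells, SOD2 ran from -0.17 to 0.10, GPX4 from -0.20 to 0.24 and PRDX2 from -0.17 to 0.07. In the interaction, GPX4 ran from -0.29 to 0.15, PRDX2 from -0.18 to 0.06 and TXN2 from -0.07 to 0.15. Leaving out 1 library of a group of 2 assumes that the lone sample varies like the other groups.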
